A study of Mus musculus with 6 samples.

Results

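Scn1a, Scn2a, Scn3a, Scn8a, Scn4b, Fgf12, Fgf13 and Fgf14 encode the voltage-gated sodium channels of central neurons, one of their beta subunits and 3 intracellular fibroblast growth factors (FGFs). These 8 genes of the 32286 counted were chosen by name, and their unique molecular identifiers (UMIs, one per captured transcript) were summed per mouse and cell type. The counts came from single nuclei of whole mouse cerebella, 1 library per mouse. SCA1 mice (n = 3) carried the Pcp2-ATXN1[82Q] transgene, in which the Purkinje cell promoter Pcp2 drives human ATXN1 with a long CAG tract, and wild-type (WT) littermates (n = 3) did not. All 6 mice were 12 weeks old and on the C57BL/6 background. The Pcp2 promoter drives the transgene in Purkinje cells and not in the other cell types described here.

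The alpha subunit of a sodium channel forms the pore that carries the rising phase of the action potential. Scn1a, Scn2a, Scn3a and Scn8a encode Nav1.1, Nav1.2, Nav1.3 and Nav1.6; Nav1.6 carries much of the resurgent current that lets Purkinje cells fire fast, and the tail of the beta4 subunit made from Scn4b can block the open pore and so support that current. Intracellular FGFs are not secreted; they bind the channel's cytoplasmic tail, place it at the axon initial segment and set its inactivation, and loss of FGF14 causes a spinocerebellar ataxia in people.

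The 6 libraries held 45473 nuclei with 24 cell type labels, and between 3354 and 10897 nuclei and 18916647 and 98366627 UMIs each. Library numbers fell into 2 groups, which are taken here as batches, since no sample label names a batch. Mouse 1 of each genotype (batch 1) had the most nuclei and the most UMIs, and mice 2 and 3 of each formed batch 2. WT mouse 2 was the shallowest, with a median of 2246.5 UMIs per nucleus. Of 45219 barcodes, 254 occurred in 2 or more libraries. The 13 labels with at least 10 nuclei in every mouse were compared between genotypes, and 3 smaller ones (microglia, endothelial cells and choroid plexus) were described. Markers of Purkinje cells (6 of 6), granule neurons (4 of 4), Bergmann glia (4 of 4), velate astrocytes (4 of 4), oligodendrocytes (4 of 4) and microglia (4 of 4) were highest in the label of that name. The other neuron labels are called by the reference genes in their names, since 3 of them agreed poorly with the clusters of their nuclei: 0.0% of nuclei labelled Pvalb-Rab3b, 14.4% labelled Pvalb-Chrm2 and 47.9% labelled Lgi2 lay in a cluster whose most frequent label was the same. The nuclei labelled Dcn-Nnat carried the fibroblast markers Dcn and Col1a2 at their highest (2 of 2), and no cell type is named for them.

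Scn1a, Scn2a and Scn3a all lie on mouse chromosome 2 (build GRCm38): Scn3a (ENSMUSG00000057182) at chr2:65457118-65567627 on the minus strand, Scn2a (ENSMUSG00000075318) at chr2:65620771-65767447 on the plus strand and Scn1a (ENSMUSG00000064329) at chr2:66270778-66440840 on the minus strand. Scn8a (ENSMUSG00000023033) lies at chr15:100869858-101045938 and Scn4b (ENSMUSG00000046480) at chr9:45138395-45154152, both on the plus strand. The FGF genes are on the minus strand, Fgf12 (ENSMUSG00000022523) at chr16:28160098-28753068, Fgf13 (ENSMUSG00000031137) at chrX:59062145-59568071 and Fgf14 (ENSMUSG00000025551) at chr14:123977907-124677127. Scn4b spans 15.8 kb and Fgf14 699 kb, and reads in introns were counted, so a level is compared between cell types for 1 gene and not between genes.

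RefSeq (GRCm38.p6) gave 15 transcription starts for 7 of the 8 genes. They are shown for 3 starts as the 250 bases upstream of the start: Scn2a, because its level differed most between granule neurons and Purkinje cells among the alpha subunits that both express; Scn8a, because its level was much alike across neurons; and Fgf13, because its mean was lowest in Purkinje cells. None of the 3 stretches overlaps an annotated exon, and the CG dinucleotides are in capitals.
Scn2a, chr2:65620519-65620768, plus strand: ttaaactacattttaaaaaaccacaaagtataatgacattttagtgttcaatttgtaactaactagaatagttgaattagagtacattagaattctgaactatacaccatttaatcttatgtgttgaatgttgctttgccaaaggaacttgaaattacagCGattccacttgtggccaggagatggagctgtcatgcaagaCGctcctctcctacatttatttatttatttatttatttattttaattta
Scn8a, chr15:100870395-100870644, plus strand: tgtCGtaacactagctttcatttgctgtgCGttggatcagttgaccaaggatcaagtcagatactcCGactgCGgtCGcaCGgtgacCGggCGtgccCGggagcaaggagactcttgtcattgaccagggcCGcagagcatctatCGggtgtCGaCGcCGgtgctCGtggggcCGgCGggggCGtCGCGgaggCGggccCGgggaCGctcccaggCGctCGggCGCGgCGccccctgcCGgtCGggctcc
Fgf13, chrX:59134437-59134686, minus strand: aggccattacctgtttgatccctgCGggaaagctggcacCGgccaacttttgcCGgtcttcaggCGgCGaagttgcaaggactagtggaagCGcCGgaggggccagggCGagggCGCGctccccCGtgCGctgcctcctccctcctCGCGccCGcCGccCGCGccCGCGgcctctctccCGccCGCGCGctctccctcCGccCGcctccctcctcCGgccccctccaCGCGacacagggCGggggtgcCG
These starts were chosen from those outside annotated exons after their letters were counted, and other starts of the same genes differ. The Scn2a stretch held 2 CG dinucleotides and 29.6% G or C, the Scn8a stretch 30 and 68.0%, and the Fgf13 stretch 31 and 74.4%. Over all 32841 such stretches the median was 6 CG dinucleotides; 18.8% had fewer than Scn2a, 94.1% fewer than Scn8a and 94.8% fewer than Fgf13. The second starts of Scn2a and Scn8a each held 9 CG dinucleotides and 53.2% G or C, and the other 3 starts of Fgf13 held 2, 6 and 33 CG dinucleotides. The GC box GGGCGG stood on either strand in 32.7% of all stretches, in 6 of the 15 of these genes and, of the 3 shown, in that of Fgf13. The TATA box TATAAA stood in 12.4% of all and in 1 of the 15, at the second start of Scn2a. These letter counts are a description.

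The alpha subunits were compared first by level, in UMIs per 1000000 UMIs of the label in a mouse (CPM). A CPM level is a part of the UMIs of a label and not an amount per nucleus, and UMIs per nucleus differed between labels. Because the labels were made from the same nuclei, no test between cell types was run; the order is given with the number of mice that show it. Scn2a was highest in granule neurons, at 900.5, 1036 and 1090 CPM in SCA1 mice 1 to 3 and 898.6, 974.5 and 1162 CPM in WT mice 1 to 3. In Purkinje cells it was 140.7, 163.8 and 122.5 CPM in SCA1 and 162.9, 86.8 and 119.4 CPM in WT mice. The 2 cell types did not overlap: the mean was 1010 ± 106 CPM in granule neurons and 133 ± 29.4 CPM in Purkinje cells (SD, n = 6 mice), 7.61-fold apart, and the ratio within a mouse ran from 5.52 to 11.2. Slc17a6-Sln neurons were next below granule neurons, at 662 ± 79.4 CPM, and lower in 6 of 6 mice. All other neuron labels lay between 286 and 411 CPM, all above Purkinje cells.

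Scn8a and Scn1a did not separate granule neurons from Purkinje cells in this way. Scn8a measured 382 ± 34.9 CPM in Purkinje cells and 338 ± 42.0 CPM in granule neurons, and its highest label changed from mouse to mouse: Pvalb-Nefh neurons (449 ± 55.8 CPM) lay above Lgi2 neurons (432 ± 38.8 CPM) in 3 of 6 mice. The order of the labels at the top of Scn8a was therefore within its spread. Scn1a was highest in Pvalb-Chrm2 neurons (582 ± 95.3 CPM, above the next label in 5 of 6 mice) and Pvalb-Cadm1 neurons (551 ± 75.2 CPM). Granule neurons (362 ± 38.6 CPM) and Purkinje cells (321 ± 47.8 CPM) were close for Scn1a, with granule neurons above in 4 of 6 mice, and their order turned around when all sums were scaled together by the trimmed mean of M values (TMM; log2 ratio -0.13).

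Scn3a, whose channel is known best from the embryonic and neonatal brain, was found mainly in Slc17a6-Nrgn neurons. It measured 138.9, 118.6 and 179.8 CPM there in SCA1 mice and 160.1, 149.6 and 184.2 CPM in WT mice, from 2564 UMIs in 670 of 757 nuclei. Slc17a6-Sln neurons followed at 104 ± 31.1 CPM, lower in 5 of 6 mice. Levels then fell through Pvalb-Chrm2 (68.6 ± 24.0 CPM), Pvalb-Cadm1 (43.7 ± 19.4 CPM), Lgi2 (43.4 ± 12.2 CPM) and Pvalb-Rab3b neurons (40.7 ± 15.0 CPM). Purkinje cells (4.69 ± 1.82 CPM, 45 UMIs) and granule neurons (1.87 ± 1.40 CPM) held next to none. Among glia, oligodendrocytes held 2.591 to 18.73 CPM, more than granule neurons in 6 of 6 mice.

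Scn4b was highest in Purkinje cells. It measured 45.85, 17.58 and 29.19 CPM in SCA1 mice and 47.52, 43.4 and 31.41 CPM in WT mice, from 411 UMIs in 169 of 292 nuclei. Pvalb-Chrm2 neurons came next at 18.3 ± 8.61 CPM, lower in 5 of 6 mice. The other 14 labels lay between 1.28 and 9.21 CPM, below Purkinje cells in 6 of 6 mice. In granule neurons Scn4b was 8.476 and 13.27 CPM in the SCA1 and WT mouse of batch 1 and from 1.272 to 3.01 CPM in the 4 mice of batch 2. Glia showed the same split (in oligodendrocytes 9.195 and 15.27 CPM against 1.171 to 5.182 CPM). The means in granule neurons (5.10 CPM), oligodendrocytes (5.74 CPM), velate astrocytes (4.78 CPM) and Bergmann glia (4.59 CPM) lay within the spread between mice.

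**Figure D1:**
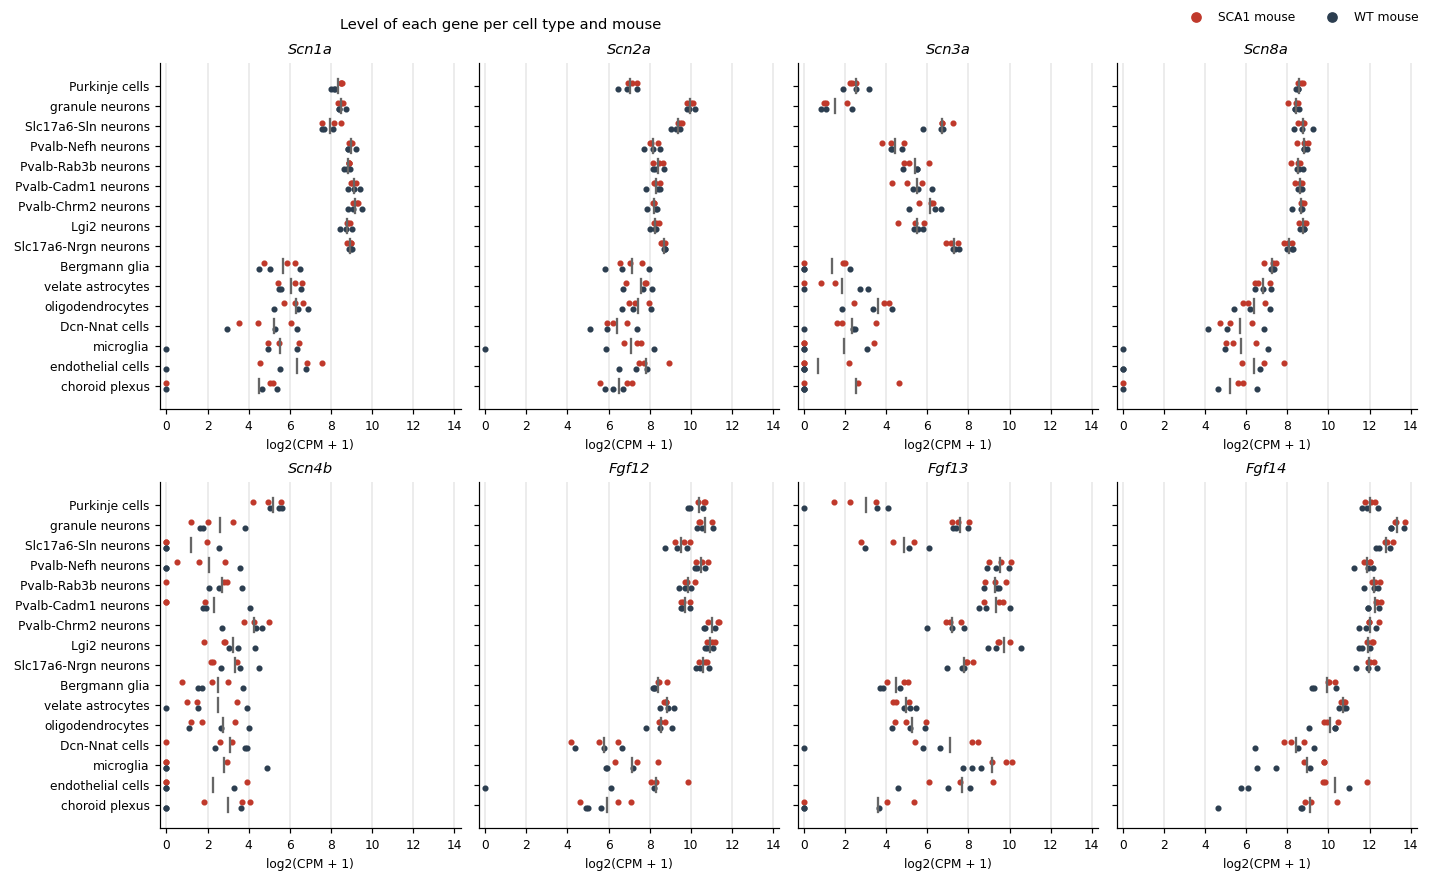
Level of each gene (log2(CPM + 1), horizontal axis) in 16 cell type labels (vertical axis); points are the 3 SCA1 and 3 WT mice, and the grey bar is the mean of the 6. Scn2a and Fgf14 lie highest in granule neurons, Scn4b in Purkinje cells, Scn3a in Slc17a6-Nrgn neurons and Fgf13 in Pvalb-Nefh and Lgi2 neurons, with Purkinje cells lowest in the mean for Fgf13 (below choroid plexus in 2 of 6 mice).

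Among the intracellular FGFs, which are taken next, Fgf14 was highest in granule neurons, at 9513, 9913 and 13437 CPM in SCA1 mice and 8469, 8371 and 13259 CPM in WT mice, from 2465061 UMIs. Slc17a6-Sln neurons followed at 7047 CPM, lower in 6 of 6 mice, and the other neuron labels lay between 3751 and 4997 CPM with Purkinje cells at 4196 ± 835 CPM. Within a mouse, granule neurons held 2.24 to 2.76 times the level of Purkinje cells. Bergmann glia (977 ± 314 CPM) and Dcn-Nnat cells (342 ± 189 CPM) lay far below the neurons.

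Fgf12 was highest in Pvalb-Chrm2 (2099 ± 467 CPM) and Lgi2 neurons (1954 ± 255 CPM), whose order held in 4 of 6 mice. Granule neurons (1628 CPM, range 1274 to 2153), Slc17a6-Nrgn neurons (1548 ± 262 CPM), Pvalb-Nefh neurons (1447 ± 271 CPM) and Purkinje cells (1329 ± 313 CPM) followed, each above the next in 4 of 6 mice, so their order was within the spread. Slc17a6-Sln neurons, next to granule neurons for Scn2a and Fgf14, had the lowest mean of the neuron labels for Fgf12 (730 ± 213 CPM). Pvalb-Cadm1 neurons (830 CPM) lay above them in 4 of 6 mice, so this order too was within the spread.

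Fgf13 was nearly absent from Purkinje cells and highest in the Lgi2 label and 3 of the Pvalb labels. In Purkinje cells it measured 10.28, 3.702 and 1.717 CPM in SCA1 mice and 16.05, 0 and 10.77 CPM in WT mice, 97 UMIs in 39 of 292 nuclei. In WT mouse 2, 0 of 41 Purkinje nuclei held a UMI. In Pvalb-Nefh neurons Fgf13 measured 516.6, 760.5 and 1065 CPM in SCA1 and 482.5, 636.1 and 996.5 CPM in WT mice. That label was 105-fold above Purkinje cells in the mean, and Lgi2 neurons (849 ± 370 CPM) were 120-fold above. Within a mouse the lowest ratio was 30.1 for Pvalb-Nefh and 30.6 for Lgi2 neurons, and there is no highest one, since 1 mouse had no Fgf13 UMI in Purkinje cells. Choroid plexus, next above Purkinje cells in the mean, was higher than them in 2 of 6 mice. Pvalb-Cadm1 (641 ± 265 CPM) and Pvalb-Rab3b neurons (633 ± 181 CPM) were close behind, while Slc17a6-Nrgn (220 ± 55.7 CPM), granule (194 ± 51.7 CPM) and Pvalb-Chrm2 neurons (146 ± 56.3 CPM) were lower and Slc17a6-Sln neurons held 28.4 ± 22.8 CPM.

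Purkinje nuclei held far more UMIs (median 36466.5) than granule nuclei (5923), so the share of nuclei with a UMI was also taken after thinning each nucleus to 3000 UMIs, which left out 12 Purkinje and 5721 granule nuclei. Scn2a was then found in 92.5% of granule nuclei and 29.2% of Purkinje nuclei (95.1% and 82.0% before thinning). Fgf13 was found in 78.3% of Pvalb-Nefh nuclei and 1.24% of Purkinje nuclei (90.9% and 11.7% before). The granule neuron marker Gabra6, which Purkinje cells should lack, stood at 11.4% of thinned Purkinje nuclei (42.2% before) and 85.3% of thinned granule nuclei, while Fgf13 stood at 27.4% of thinned granule nuclei. Scn4b was found in 10.1% of thinned Purkinje nuclei against 1.55% of granule nuclei (56.1% and 3.40% before), and Scn3a in 36.4% of Slc17a6-Nrgn nuclei against 0.501% of granule nuclei (88.2% and 1.05% before).

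The composition of each family was given next as the share of each gene in the UMIs of the 4 alpha subunit genes, or of the 3 FGF genes, in a mouse. The shares are of UMIs, which depend on gene span, and are compared between cell types. In Purkinje cells Scn8a was 45.7% ± 3.29, Scn1a 38.0% ± 2.32 and Scn2a 15.7% ± 2.94 (SD, n = 6 mice). In granule neurons Scn2a was 59.0% ± 2.09, Scn1a 21.1% ± 0.468 and Scn8a 19.8% ± 2.21. The range of the Scn2a share was 12.1% to 20.1% over Purkinje cells of the 6 mice and 57.0% to 62.7% over granule neurons, with no overlap. Among the other neuron labels, Slc17a6-Sln neurons had the largest Scn2a share (46.0% ± 4.21), and Slc17a6-Nrgn neurons the largest Scn3a share (11.7% ± 1.80). Pvalb-Nefh neurons had 39.8% Scn1a, 35.8% Scn8a and 22.8% Scn2a, and Lgi2 neurons 36.1%, 35.2% and 25.2%; the Scn8a share of both lay below that of Purkinje cells with no overlap. After dividing UMIs by the span of each gene in kb, Purkinje cells had 43.6% Scn8a, 37.6% Scn1a and 18.0% Scn2a, and granule neurons 17.6%, 19.4% and 62.9%.

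Fgf14 made up most of the FGF UMIs in every neuron label, 75.9% ± 2.59 in Purkinje cells and 85.2% ± 1.12 in granule neurons. Fgf12 made up 23.9% ± 2.64 in Purkinje cells and 13.2% ± 1.04 in granule neurons. The Fgf13 share was 0.132% ± 0.128 in Purkinje cells, 1.56% ± 0.119 in granule neurons, 12.4% ± 2.87 in Pvalb-Nefh neurons and 12.5% ± 3.72 in Lgi2 neurons. No Pvalb-Nefh value (8.78% to 15.2%) came near the Purkinje values (0 to 0.336%).

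**Figure D2:**
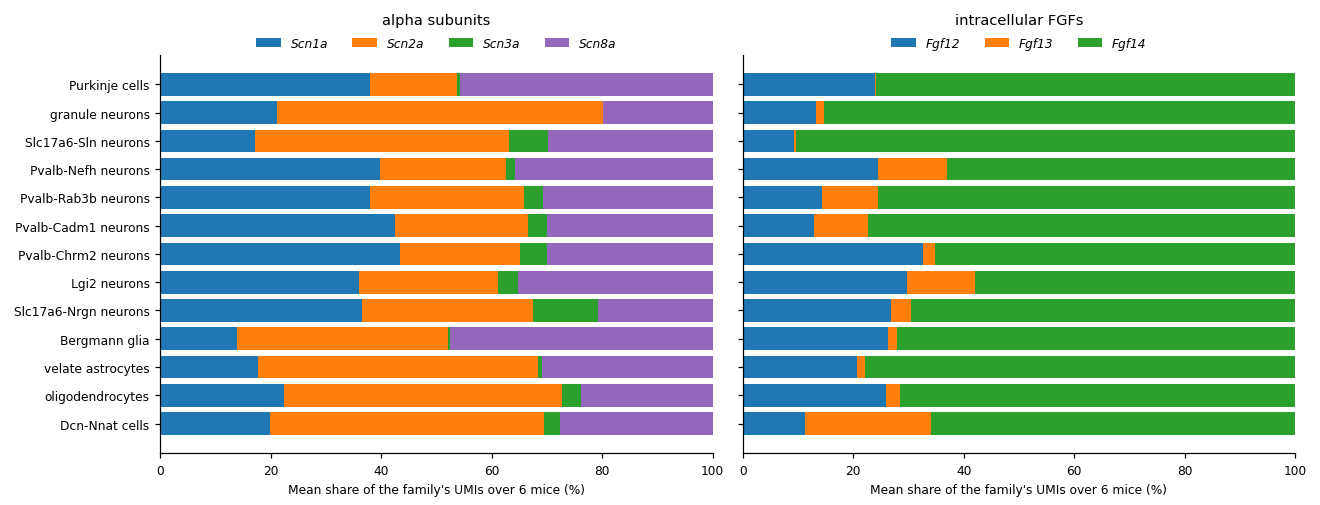
Mean share over 6 mice (%, horizontal axis) of each gene in the UMIs of the alpha subunit genes (left) and of the intracellular FGF genes (right), in 13 cell type labels. Scn2a takes 59.0% of the alpha subunit UMIs in granule neurons and 15.7% in Purkinje cells; Fgf13 takes 12.4% of the FGF UMIs in Pvalb-Nefh neurons and 0.132% in Purkinje cells.

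Granule neurons gave most of the nuclei, and their free RNA can enter every droplet. Each level was therefore set as a percent of that in granule neurons of the same mouse, beside the granule markers Gabra6, Cbln3, Etv1 and Fat2. In Bergmann glia the markers stood at a mean of 11.5% to 34.6% of granule neurons, and Fgf14 (9.80%), Fgf13 (11.9%), Scn1a (14.5%), Fgf12 (21.4%) and Scn2a, which lay between Fgf13 and Scn1a, were above every marker in 0 of 6 mice. Cbln3 was the highest of the markers, and Fgf12 lay above the means of Gabra6 and Fat2. The part of free RNA in these 5 levels was not tested. Scn8a differed, at 45.0% of granule neurons (range 40.7% to 49.4%) and above every marker in 4 of 6 mice, with 152 ± 19.5 CPM and 34.4% of thinned Bergmann glia nuclei against 21.6% with Gabra6. Scn8a made up 47.5% ± 13.5 of the alpha subunit UMIs of Bergmann glia.

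The low genes Scn3a and Scn4b, themselves near 0 in granule neurons, gave high percents in some glia. Scn4b stood at 89.3% in Bergmann glia and 112% in oligodendrocytes, and Scn3a at 902% in oligodendrocytes, each above every marker in 6 of 6 mice. Because granule neurons held little of either gene, this percent cannot judge free RNA from other cell types, which was not tested. Scn3a in Bergmann glia (73.7%) and velate astrocytes (220%) was above every marker in 3 of 6 mice. Scn4b in velate astrocytes (75.1%) was so in 5 of 6 mice. In each of these last pairs the lowest mouse was at 0.

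In velate astrocytes and oligodendrocytes, respectively, the markers stood at 18.0% to 42.9% and 15.3% to 41.9% of granule neurons, and Scn1a, Scn2a, Scn8a, Fgf12, Fgf13 and Fgf14 stood at 16.7% to 33.1% and from 10.5% up, each mean below that of Cbln3, and were above every marker in at most 1 of 6 mice. In Purkinje cells, where the markers stood at 4.28% to 10.0%, Fgf13 (4.08%) was above every marker in 0 of 6 mice and Scn2a (13.3%) in 5 of 6. Scn1a, Scn8a, Fgf12 and Fgf14 were above every marker in Purkinje cells of 6 of 6 mice. In Dcn-Nnat cells Fgf12 (3.68%) and Fgf14 (3.41%) lay below all 4 marker means, while Fgf13 varied from 0 to 156% and was above every marker in 3 of 6 mice.

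**Figure D3:**
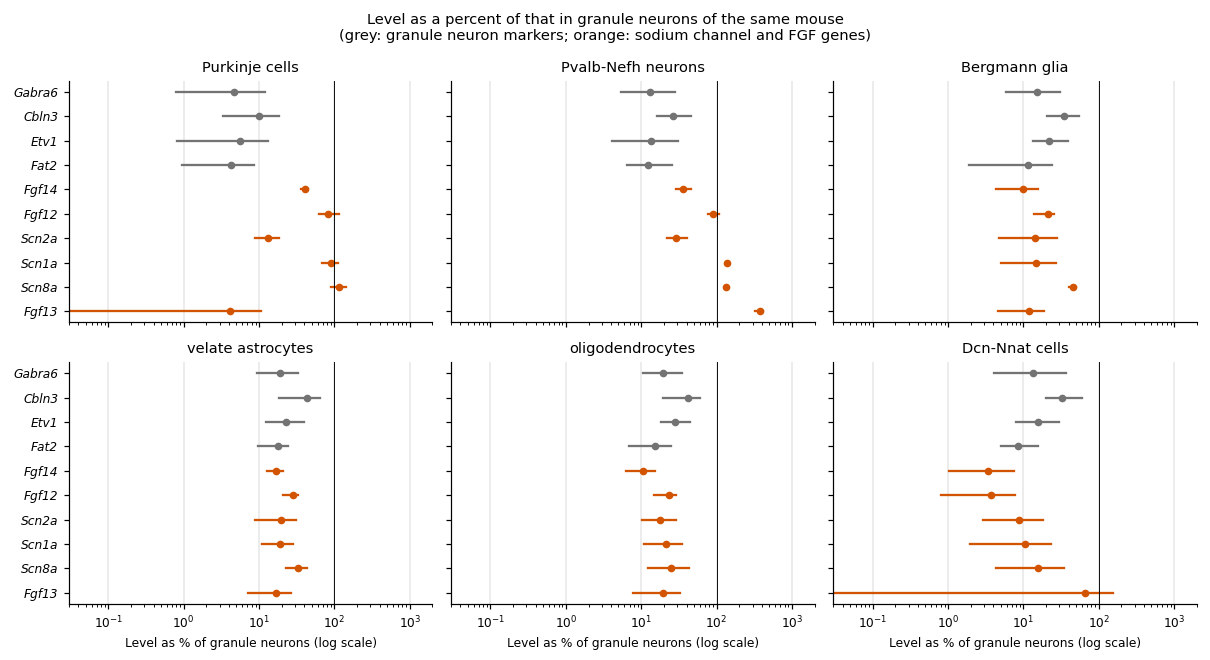
Level in 6 labels as a percent of that in granule neurons of the same mouse (horizontal axis, log scale); points are means over 6 mice, lines the lowest to the highest mouse (a line to the left edge includes a mouse at 0), with granule markers in grey and the channel and FGF genes in orange. The mean of Scn8a in Bergmann glia (45.0%) stands right of the marker means, but its range lies within that of Cbln3 (20.5% to 55.2%). The means of the other genes drawn there lie among or below those of the markers. Scn3a and Scn4b are not drawn. Fgf13 in Purkinje cells (4.08%) lies at the level of the markers.

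Genes whose pattern over the 13 larger labels was most like that of each of the 8 were taken from 13701 genes by Pearson's r of log2(mean CPM + 1), with no p; the labels share libraries and depth. Scn2a was most like Snap25 (r = 0.98), a SNARE protein of synaptic vesicle release, then Stxbp5l and the chloride channel Clcn1. Scn8a was most like Mcf2l, Unc80 (r = 0.97), a subunit of the sodium leak channel complex, and Clvs1. Scn1a was most like Gm13630 (r = 0.99), a transcript on the opposite strand inside Scn1a, then 4933406I18Rik and Snhg14. Scn3a was nearest to Gm14377, C030017B01Rik and the potassium channel Kcnh2 (r = 0.93), and Scn4b to Fras1 (r = 0.88), Rcan1 and Svopl. The 3 genes nearest Scn4b had their highest level in Purkinje cells too, which their choice by likeness favours.

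For the FGFs the nearest genes were Tmem63c (r = 0.98), Samd12 and D430041D05Rik for Fgf14, Morc2b, Gm28198 and Reep1 (r = 0.93) for Fgf12, and Wdr75, Cacnb3 (r = 0.91) and Btbd11 (r = 0.91) for Fgf13. Cacnb3 is a beta subunit of voltage-gated calcium channels. Cacnb3 measured 37.1 CPM in Lgi2 neurons and 1.08 CPM in Purkinje cells. Btbd11 measured 479 CPM in Pvalb-Nefh neurons and 3.48 CPM in Purkinje cells. Wdr75, the gene of highest r, measured 32.5 CPM in Pvalb-Cadm1 neurons and 15.7 CPM in Purkinje cells. These genes were picked for their likeness over the same labels, so their levels only describe that choice. Among the 8 genes themselves, Scn1a and Scn8a (r = 0.92), Scn8a and Fgf14 (r = 0.90) and Scn8a and Fgf12 (r = 0.88) were most alike. Scn2a and Fgf14 stood at r = 0.85. The lowest r was that of Scn2a and Scn4b (-0.39), and Scn4b was low in most labels.

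SCA1 mice were then compared with WT mice within each label, the question the study's design poses for Purkinje cells and for the cells around them. Counts were fitted with genotype and batch by edgeR's quasi-likelihood test, with Benjamini-Hochberg adjustment over all genes, and levels are given as CPM scaled within the label by TMM (scaled CPM). Of 104 pairs of gene and label, 93 passed the filter on low counts and 0 reached an adjusted p of 0.05. One pair had an unadjusted p under 0.05. The background was as low: 0.0% of 10517 genes in Purkinje cells, 0.00547% in granule neurons, 0.00866% in oligodendrocytes and 0.0% in the other 10 labels were called. The genotypes overlapped in every one of the 93 pairs (0 separated), whereas 10.1% of genes tested in Purkinje cells were separated (5.08% with SCA1 above, 5.04% below), 3.3% in granule neurons (1.59% and 1.71%), 7.22% in Slc17a6-Sln neurons (3.69% and 3.53%) and 3.51% to 6.63% in the other labels. DESeq2, and limma-trend on nuclei in the 4 labels where it was run, also called 0 of the 8 genes. DESeq2 called 0.618% of all genes in Purkinje cells, 0.0821% in granule neurons, 0.011% in Lgi2 neurons, 0.017% in Bergmann glia, 0.00866% in oligodendrocytes and 0.0% in the other 8 labels, and limma-trend on nuclei called 2.63% in Purkinje cells, 2.08% in Bergmann glia, 0.916% in velate astrocytes and 1.03% in oligodendrocytes. The p-values on sums measure the spread between these mice, and those on nuclei the spread between nuclei.

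In Purkinje cells the alpha subunits were close between genotypes. Scn8a measured 387.9, 347.1 and 423.9 scaled CPM in SCA1 mice and 359.5, 400.4 and 402.4 in WT mice, with a log2 fold change of -0.00 (SE 0.199, 95% interval -0.44 to 0.44). Scn1a measured 321.5, 343.7 and 371.2 against 276.0, 282.2 and 346.7, with a log2 fold change of 0.20 (SE 0.195, interval -0.23 to 0.63, adjusted p = 0.999 by edgeR). The 3rd WT mouse lay among the SCA1 mice for Scn1a. Scn2a measured 124.4, 153.6 and 126.9 against 160.9, 94.51 and 139.7, with a log2 fold change of 0.03 (interval -0.49 to 0.55). Scaling by library size alone moved the median log2 fold change of all genes in Purkinje cells from 0.02 to 0.20, and on that scale Scn8a (0.18) lay no further up than the median gene.

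Scn4b, the beta subunit highest in Purkinje cells, had the lowest p of the 7 genes tested there. It measured 40.54, 16.49 and 30.24 scaled CPM in SCA1 mice and 46.92, 47.26 and 36.77 in WT mice. SCA1 mouse 1 lay above WT mouse 3, so the groups overlapped. The log2 fold change was -0.57 (SE 0.293, interval -1.22 to 0.08, adjusted p = 0.808 by edgeR); it was -0.21 in batch 1 and -0.87 in batch 2, and -0.34 without SCA1 mouse 2, in which Scn4b was found in 12 of 52 nuclei. A fall of up to 1.22 on the log2 scale lies within this interval, as does no difference.

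The FGFs in Purkinje cells had wider intervals than the alpha subunits tested there. Fgf14 measured 3161, 4103 and 5047 scaled CPM in SCA1 and 3735, 3467 and 6303 in WT mice (log2 fold change -0.14, interval -0.85 to 0.56), and Fgf12 1159, 1496 and 1701 against 968.2, 1008 and 1778 (0.22, interval -0.37 to 0.81). For both, the 3rd mouse of each genotype was highest. Fgf13, near its floor, measured 9.087, 3.471 and 1.779 against 15.84, 0 and 12.61 (log2 fold change -1.06, interval -2.59 to 0.47), and Scn3a was below the filter.

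**Figure D4:**
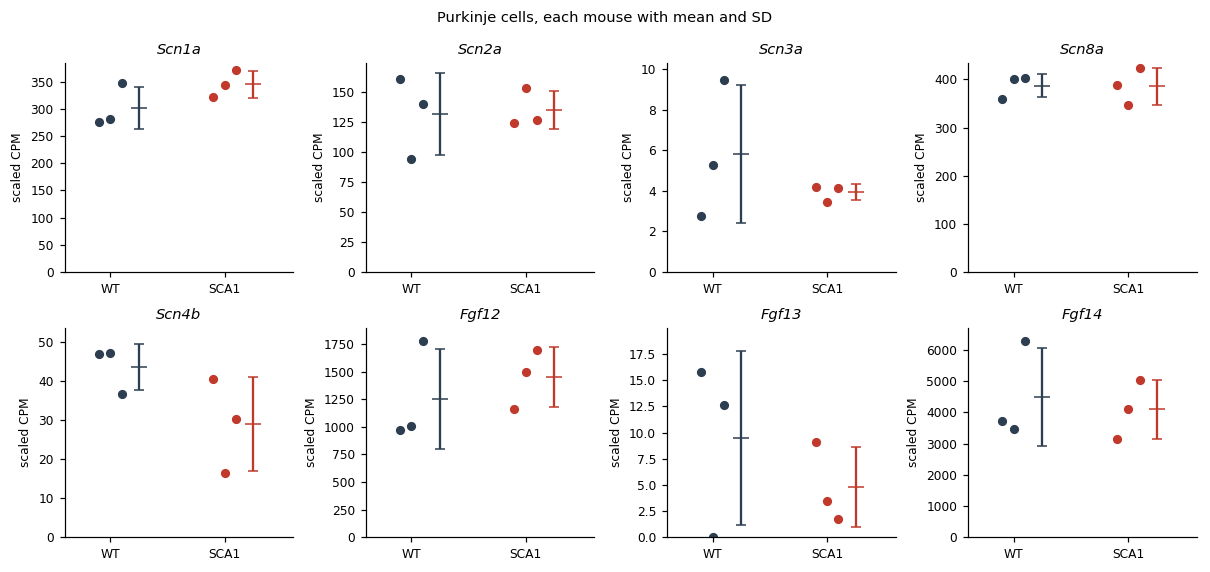
Scaled CPM in Purkinje cells (vertical axes start at 0) for each WT and SCA1 mouse, with the mean and SD of 3 mice beside the points. The genotypes overlap for all 8 genes; Scn4b shows 16.49 to 40.54 in SCA1 mice and 36.77 to 47.26 in WT mice.

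Granule neurons had the deepest sums, and none of the 8 genes was called there. The log2 fold changes were -0.04 for Scn2a (833.6, 971.2 and 1213 scaled CPM in SCA1 against 836.6, 950.7 and 1329 in WT mice; interval -0.67 to 0.59), -0.08 for Scn1a, -0.16 for Scn8a, -0.05 for Fgf12, 0.00 for Fgf13 and 0.09 for Fgf14 (interval -1.11 to 1.29). The low genes gave -0.08 for Scn3a and -0.37 for Scn4b (interval -1.08 to 0.33). For Fgf14 the values were 8807, 9291 and 14953 against 7885, 8167 and 15164. The 3rd mouse of each genotype was again the highest, and the genotypes overlapped.

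Across the tested labels Scn2a ranged from -0.11 to 0.21 in log2 fold change, Scn8a from -0.16 to 0.19, Scn1a from -0.44 to 0.39, Fgf12 from -0.30 to 0.35 and Fgf14 from -0.14 to 0.45. Scn3a ranged from -0.66 in Pvalb-Cadm1 neurons to 0.34 in Slc17a6-Sln neurons, and the first was -1.97 in batch 1 and -0.05 in batch 2. Scn8a was negative in 11 of 13 labels and Scn3a in 7 of 9, while Scn2a and Fgf14 were each positive in 10 of 13; the labels share the same 6 mice and their free RNA, so these counts are not independent. Scn4b was negative in 6 of 7 labels (-0.69 to 0.28). Of the 11 pairs below the filter, Scn4b in Lgi2 neurons (5.985, 2.615 and 6.638 scaled CPM in SCA1 against 18.29, 7.085 and 11.21 in WT mice) and in Pvalb-Cadm1 neurons (2.613, 0 and 0 against 15.4, 2.904 and 2.772) lay lower in all 3 SCA1 mice, from 55 and 11 UMIs in all, and were not tested. Among the genes that passed the filter, 2.99% lay lower in all SCA1 mice in Lgi2 neurons and 2.79% in Pvalb-Cadm1 neurons; the share among genes below the filter was not computed.

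The largest positive difference was that of Fgf13 in Dcn-Nnat cells. Fgf13 measured 42.59, 311.5 and 372.0 scaled CPM in SCA1 mice and 57.67, 0 and 101.3 in WT mice. SCA1 mouse 1 lay below WT mice 1 and 3, and batch 1 alone gave -0.43. The log2 fold change was 1.62 (SE 0.690, interval 0.12 to 3.11, adjusted p = 1.00 by edgeR), and 0.87 without WT mouse 2. Of 242 nuclei 50 held Fgf13, and 5 nuclei carried 41.5% of its 381 UMIs. The summed fibroblast markers ranged from 643 to 1071 CPM in SCA1 and 500.9 to 678.2 CPM in WT mice, and their part in the result was not tested.

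In Bergmann glia Fgf14 measured 1179, 977.2 and 1154 scaled CPM in SCA1 mice and 1230, 641.9 and 661.9 in WT mice. The log2 fold change was 0.45 (SE 0.275, interval -0.15 to 1.05, adjusted p = 1.00 by edgeR), -0.06 in batch 1 and 0.70 in batch 2. For Fgf12 it was 0.31 (interval -0.24 to 0.85) and for Fgf13 0.49 (interval -0.24 to 1.22), so each interval held 0. The median over the 6 members tested in Bergmann glia was 0.25. Over the 7 that passed the filter without SCA1 mouse 2 it was 0.04, and over the 7 without WT mouse 3 it was -0.00. The medians without each of the other mice are not listed, and the 7 genes are not the same set as the 6. The summed granule markers in Bergmann glia were 582, 337.6 and 250.6 CPM in SCA1 and 703.6, 287.6 and 201.3 CPM in WT mice, lower in SCA1 in batch 1 and higher in both SCA1 mice of batch 2 than in WT mouse 3; their part in the result was not tested. Limma-trend with single nuclei as replicates, the kind of test that the study used, was rebuilt here on all 1243 nuclei of the Bergmann glia label. The study also required the cluster to match, so its own calls can differ from these. The rebuilt limma-trend gave Fgf14 in Bergmann glia an adjusted p of 0.0513 and Fgf12 one of 0.0838, beside 2.08% of all genes called. Nuclei of the same mouse are not independent.

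**Figure D5:**
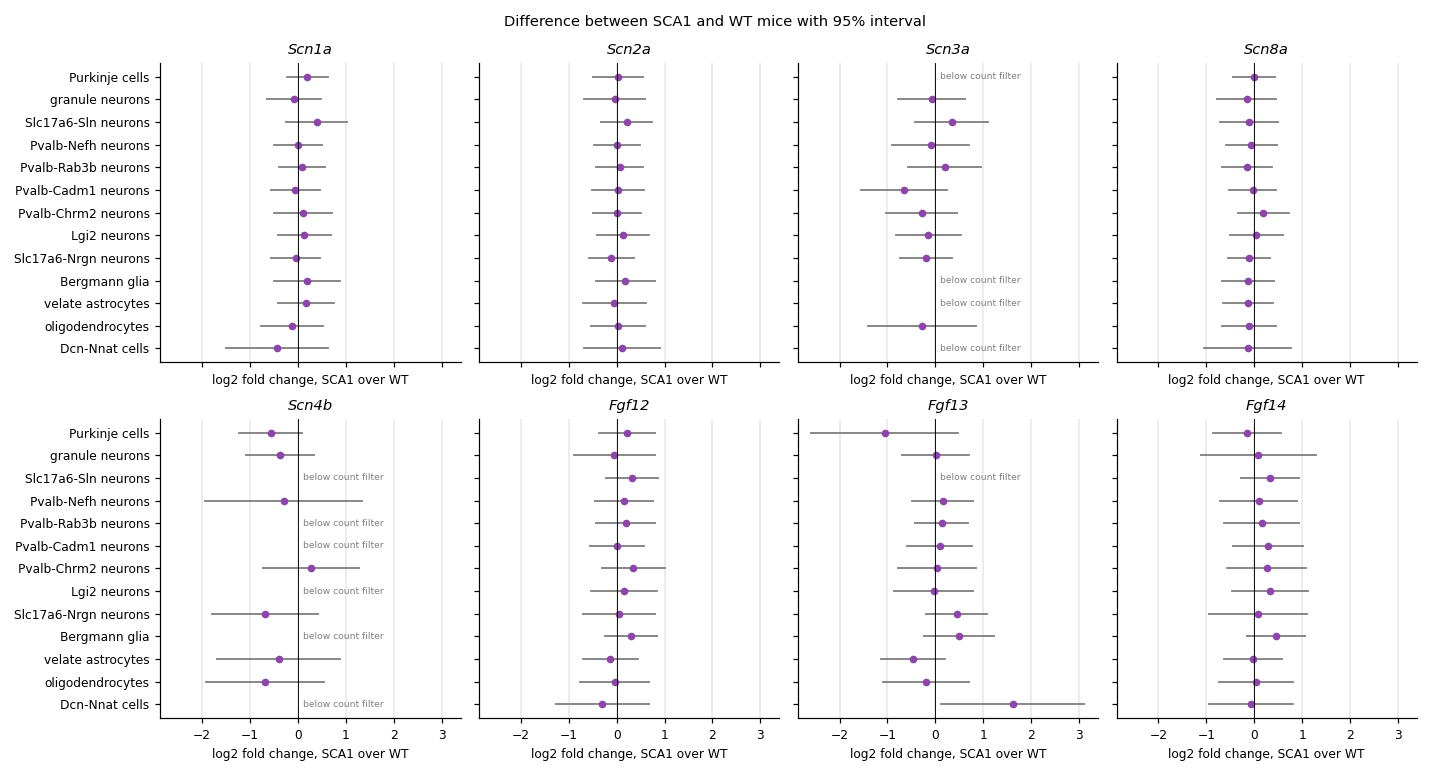
Log2 fold change of SCA1 over WT mice (horizontal axis) with its 95% interval for each gene in 13 labels, from edgeR with genotype and batch; pairs below the count filter are marked. The interval of Fgf13 in Dcn-Nnat cells (0.12 to 3.11) is the one that leaves out 0, and its adjusted p is 1.00.

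An interaction term asked whether the genotype difference of a label departed from the one in granule neurons, in 96 pairs of gene and label. The count filter was run on the sums of the label and of granule neurons together. Pairs below the filter within their own label therefore entered through the deep granule sums, and for these the test says little about the label. The count at an adjusted p of 0.05 by edgeR was 0, against 0 to 5 of all genes per label (0.0318% in Slc17a6-Sln, 0.00606% in Pvalb-Cadm1 and 0.00583% in Pvalb-Chrm2 neurons, 0.0% in the other 9). One pair, Fgf13 in Dcn-Nnat cells, had an unadjusted p under 0.05 (interaction 1.88 on the log2 scale, adjusted p = 1.00 by edgeR). The interactions spanned -0.05 to 0.31 for Scn2a, -0.13 to 0.41 for Scn8a, -0.26 to 0.38 for Fgf14, -0.30 to 0.46 for Fgf12 and -0.48 to 0.53 for Scn1a. They were wider for Fgf13 (-1.10 to 1.88), Scn3a (-2.13 to 1.11) and Scn4b (-2.33 to 0.91), genes with pairs below the filter within a label.

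Purkinje nuclei of the SCA1 mice were also split by the presence of a human ATXN1 UMI, 10, 10 and 11 with and 55, 42 and 18 without in SCA1 mice 1 to 3. Scn1a measured 449, 423 and 417 CPM in the nuclei with human ATXN1 of SCA1 mice 1 to 3 and 347, 341 and 320 CPM in those without. These CPM were not scaled by TMM. For Scn1a the log2 difference fitted on TMM-scaled sums with mouse as a term was 0.21 (SE 0.149, adjusted p = 0.718 by edgeR). The share of all genes higher with human ATXN1 in every SCA1 mouse was not computed. The log2 difference was 0.07 for Scn2a, -0.00 for Scn8a, -0.13 for Scn4b, -0.14 for Fgf12 and -0.19 for Fgf14. None of the 6 members tested was called, beside 1.33% of 8570 genes. In SCA1 mouse 2 the nuclei with human ATXN1 had a median of 34274.5 UMIs and those without 7287.5, so depth moved with the split and its part was not tested.

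Other genes of sodium channels, their partners, the axon initial segment and FGF receptors were examined as lists of 32 genes in all. Of 308 pairs of gene and label tested, 0 were called by edgeR and 6 had an unadjusted p under 0.05. Among the other alpha subunits, Scn9a (Nav1.7) in Purkinje cells came nearest: it measured 31.45, 137.1 and 163.6 scaled CPM in SCA1 and 21.33, 72.2 and 65.14 in WT mice. In batch 2 both SCA1 mice lay above both WT mice, whereas SCA1 mouse 1 lay below 2 WT mice. Its log2 fold change was 0.95 (SE 0.223, interval 0.45 to 1.44, adjusted p = 0.216 by edgeR), 0.54 in batch 1 and 1.12 in batch 2. The adjusted p of Scn9a was 0.0354 without the low-count filter, 0.0367 with a replicate block and 0.00485 with limma-trend on nuclei. It was 0.0835 by DESeq2, 0.142 with library size only, 1.00 without the batch term and 0.267 to 0.722 without 1 mouse. Scn9a was highest in Pvalb-Chrm2 neurons (292 CPM) and lower in Purkinje cells (80.6 CPM) and granule neurons (23.7 CPM).

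The beta subunit gene Scn2b was lower in Purkinje cells (45.6 CPM) than in granule neurons (106 CPM), the reverse of Scn4b. Fgf11, the remaining intracellular FGF, was highest in Purkinje cells (22.5 CPM) and low in granule neurons (3.69 CPM). In the sodium leak channel complex Nalcn (904 CPM), Unc79 (766 CPM) and Fam155a (5876 CPM) peaked in Slc17a6-Sln neurons, and Unc80 (689 CPM) in granule neurons. Of the axon initial segment genes, Kcnq3 in granule neurons (log2 fold change 0.70) and Kcna1 in Pvalb-Chrm2 neurons (0.66) had an unadjusted p under 0.05; so did Fgfr1 in Pvalb-Cadm1 neurons (0.87), Scn7a in Dcn-Nnat cells (1.18) and Scn9a in granule neurons (-0.40). Each had an adjusted p of 1.00 by edgeR. Kcna1 was 0.28 without SCA1 mouse 2, and Kcnq3 was 0.43 without SCA1 mouse 3.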

How the data were processed

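Single-nucleus RNA (10x Genomics 3′ chemistry) of whole cerebella was measured in 3 SCA1 and 3 WT mice. The authors aligned reads to mm10 plus the human ATXN1 locus, counted UMIs in exons and introns with Cell Ranger, removed debris by an expression model, and named cell types with a reference atlas; the submitters' processing notes name Cell Ranger 4.0.0, 5.0.1 and 6.0.1, R 4.1.0 and Seurat 4.0.4, without saying which library each version served. The deposited values are raw UMI counts per gene and nucleus, with the authors' labels and clusters. Doublets were not called here.

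Counts were summed per mouse and label, for labels of at least 10 nuclei in every mouse. Sums were filtered with edgeR's filterByExpr (minimum count 10, minimum total 15), scaled by TMM and fitted with genotype and batch by edgeR 4.0.16 (quasi-likelihood test, adjusted p at most 0.05 over all genes) in R 4.3.3. Batch was read from the library numbers. DESeq2 1.42.0 and limma 3.58.1 on sums (prior count 2) were alternatives. Another was limma-trend on nuclei scaled with scran 1.30.0, the kind of test that the study used, run in 4 labels. It took every nucleus of a label, whereas the study assigned a cell type only where cluster and label matched. The other alternatives were other scalings, no filter, no batch term, a replicate block, nuclei whose label matched the cluster's, nuclei of at least 3000 UMIs, and leaving out each mouse. The fits were tested on simulated counts. Promoter stretches came from RefSeq (GRCm38.p6) and positions from GENCODE. A fitted fold change of a gene at 0 in a library depends on the prior count.

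All 8 genes are described. By the rule for named genes, the 3 genes of highest r among those of at least 10 CPM in some label are named for likeness, and list genes where called. None was called, so the list genes named (unadjusted p under 0.05, or levels set beside a member's) were chosen after their values were seen. The members and lists were chosen with earlier results of these data known.

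Deviations from the genotype mean were correlated between mice of the same number. The correlation was over 0.1 in every pair in 6 of 13 labels (granule neurons 0.87, 0.26 and 0.78). In Purkinje cells it was 0.67, 0.07 and 0.50, beside -0.07 and 0.08 between mice 2 and 3 of opposite genotypes. There the best match in the other genotype had the same number for 5 of 6 mice, and for 4 to 6 in every label. The mice numbered 1 are also the pair of batch 1. No source here says that a number marks a litter or day. One gene of the lists is not reported here.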

Additional observations from a re-analysis of the deposited data

How the results depend on the processing

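Without the filter on low counts, 1 of the 8 genes was called in 1 label, Fgf13 in Dcn-Nnat cells (adjusted p = 0.0444 by edgeR, range over its alternatives 0.0444 to 1.00). The share of all genes called there without the filter is not listed here, so this call has no background beside it. With the filter, edgeR called 0.0% of 8244 genes there. Under every other alternative run, 0 of the 8 were called. Signs changed in 167 of 1376 values of gene, label and alternative, all at a main log2 fold change of 0.66 or less in size. In Purkinje cells Scn8a (-0.00) became 0.18 with library size only, 0.00898 without the filter, 0.00443 with nuclei of at least 3000 UMIs and 0.15 with limma-trend on nuclei, and Fgf14 (-0.14) became 0.0494 with library size only and 0.00591 with limma-trend on nuclei. Leaving out 1 mouse at a time gave ranges that crossed 0 for Scn2a (-0.18 to 0.25), Scn8a (-0.0617 to 0.0923) and Fgf14 (-0.37 to 0.12) in Purkinje cells, for Scn2a (-0.17 to 0.11), Scn8a (-0.35 to 0.0533) and Fgf14 (-0.12 to 0.39) in granule neurons, for Scn3a in Pvalb-Cadm1 neurons (-1.21 to 0.0484, positive without mouse 1 of either genotype), for Scn4b in Pvalb-Chrm2 neurons (-0.18 to 0.80, negative without mouse 1 of either genotype) and for Fgf12 in Dcn-Nnat cells (-0.59 to 0.0354). The cause was not tested.

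With a replicate block 0 of the 8 genes were called in any label and 3 of 93 signs changed. The number of all genes called in Purkinje cells was 0 with TMM and edgeR (720 at an unadjusted p under 0.05), 8 with RLE factors, 2 with library size only, 65 with DESeq2, 223 without the filter, 184 with the replicate block, 1 with nuclei whose label matched the cluster's, 467 with limma-trend on nuclei, and 0 to 6 without 1 mouse, so the count depends on the method while none of these settings called one of the 8 there.

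Scaling all sums together by TMM turned the log2 ratio of Scn1a in granule neurons over Purkinje cells to -0.13. The Fgf13 share in Pvalb-Nefh neurons exceeded that in Purkinje cells by 12.3 percentage points, and by 15.5 per kb of gene span. Among the alternatives that covered all 13 labels, the label of highest level was the same for every gene except Scn8a, which moved to Purkinje cells with TMM across all sums, to Slc17a6-Sln neurons without WT mouse 2 and to Lgi2 neurons without WT mouse 3. The fit on nuclei whose label matched the cluster's covered 51 pairs in 7 labels and was not run in the other 6, which hold the highest levels of Scn1a, Scn3a, Fgf12 and Fgf13, so those were not checked in this way. Depth limits the low genes: Scn3a and Fgf13 in Purkinje cells rest on 45 and 97 UMIs.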

Other observations

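Fgf13 was also present in nuclei labelled microglia, which carried 4 of 4 microglia markers at their highest but held only 125 nuclei, with 8 in one mouse, and were not tested. It measured 566.7, 896.1 and 1093 CPM in SCA1 mice and 384.9, 290.1 and 210.0 CPM in WT mice, so all 3 SCA1 mice lay above all 3 WT mice, as for 5.07% of 2526 genes in that label. Of 125 nuclei 61 held Fgf13, and 5 nuclei carried 41.3% of its 438 UMIs. Its level was 301% of that in granule neurons of the same mouse (range 82.4% to 493%), above each of the 4 granule markers in 6 of 6 mice. The summed granule markers in the microglia label were 540 to 586 CPM in SCA1 and 330 to 951 CPM in WT mice; their part was not tested.

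Scn3a in granule neurons was 3.266 and 4.022 CPM in the 2 mice of batch 1 and 0.7714 to 1.094 CPM in the 4 mice of batch 2, the same split by batch that Scn4b showed there.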
